A study of Caenorhabditis elegans with 2 samples.

Results

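C-type lectin genes are the 240 protein-coding genes of Caenorhabditis elegans whose name starts with clec-, out of 19973 protein-coding genes on the 6 nuclear chromosomes in Ensembl release 115 (assembly WBcel235). They were chosen by name alone, and each was scored for binding of MADF-3, a protein named for its MADF domain, which is a DNA-binding domain related to that of Myb. The binding data are chromatin immunoprecipitation and sequencing of whole young adult worms in 2 biological replicates of 1 group, collected 63 hours after synchronisation as starved L1 larvae. The strain, RW12241, carries madf-3::TY1::EGFP::3xFLAG (allele st12241) on chromosome II, inserted with CRISPR at the gene itself, and the antibody was against GFP. Every sample carries the tagged allele, there is no untagged or untreated group among them, and whole animals mix all tissues, so binding in a small tissue and weak binding in many cannot be told apart. The labels call the replicates biological and give each a biosample record of its own.

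C-type lectins are proteins with a C-type lectin-like domain, a fold that in vertebrates often binds sugars with the help of calcium. The worm family is large, most members are predicted to be secreted or membrane proteins, and many are made in the intestine. Several are switched on when worms meet pathogenic bacteria, in part through the p38 kinase PMK-1, and are used as readouts of innate immunity. Many lie beside each other as tandem copies.

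MADF-3 peaks were rare at C-type lectin promoters, and those found were weak. A promoter peak here is a summit of the series-wide thresholded list within 500 bp of the annotated 5' end of a gene, on either side. That list keeps peaks whose rank was reproducible by the irreproducible discovery rate (IDR), and it held 2741 peaks. Of the 240 clec genes, 7 had a promoter peak (2.92%, exact 95% binomial interval 1.18 to 5.92%), against 6.26% of all protein-coding genes. The 7 genes were clec-89, clec-140, clec-88, clec-150, clec-196, clec-261 and clec-126. The interval covers counting error only, neighbouring tandem copies are not independent, and no test of the difference was made. The lists hold peaks and no read counts, and library depth is unknown.

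To show what lies under these summits, 101 bases of the WBcel235 genome (RefSeq copy, the assembly of the ce11 files) centred on the summit are given for 6 of the 7 genes, on the strand of the gene and 5′ to 3′. Capitals mark bases in an annotated exon of the clec gene or, for clec-126, bases of a tRNA gene. The windows are chrII:4672812-4672912 for clec-140, chrII:6365637-6365737 for clec-88, chrIII:1002279-1002379 for clec-150, chrIV:17277232-17277332 for clec-196, chrV:20294312-20294412 for clec-261 (minus strand) and chrII:3519233-3519333 for clec-126.
clec-140: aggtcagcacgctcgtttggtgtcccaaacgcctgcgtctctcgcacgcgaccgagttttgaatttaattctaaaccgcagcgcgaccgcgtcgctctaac
clec-88: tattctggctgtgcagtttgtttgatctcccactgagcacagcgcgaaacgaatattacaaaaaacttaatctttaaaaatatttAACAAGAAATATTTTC
clec-150: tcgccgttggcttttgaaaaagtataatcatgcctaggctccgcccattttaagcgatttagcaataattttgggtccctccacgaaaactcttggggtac
clec-196: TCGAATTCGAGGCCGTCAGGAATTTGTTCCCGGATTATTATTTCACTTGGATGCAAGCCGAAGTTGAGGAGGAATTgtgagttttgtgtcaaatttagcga
clec-261: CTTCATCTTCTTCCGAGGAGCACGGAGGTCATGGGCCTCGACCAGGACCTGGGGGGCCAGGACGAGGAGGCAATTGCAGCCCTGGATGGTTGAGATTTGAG
clec-126: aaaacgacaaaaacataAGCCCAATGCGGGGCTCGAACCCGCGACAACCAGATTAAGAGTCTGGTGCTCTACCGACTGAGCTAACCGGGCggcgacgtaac

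The summits were of 3 kinds. At clec-140, clec-88 and clec-150 they lay in intergenic DNA before the gene, with no or few capitals in the window. At clec-196 and clec-261 they lay inside the coding sequence, where 76 and 101 of the 101 bases are exonic. At clec-126 the summit lay within a tRNA gene, WBGene00023161, on chromosome II from 3519250 to 3519322 on the minus strand, which fills 73 bases of the window. The base composition of the windows also varied, with a GC content of 31.7% at clec-88 and 60.4% at clec-261. The median over all 2741 summit windows of this length was 47.5%, and the quartiles were 41.6 and 52.5%.

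The highest signal at a C-type lectin promoter was at clec-89 (WBGene00015631, chromosome I from 4071664 to 4073128, minus strand). Signal is the strength that the authors' peak caller gave each peak, on a scale not given in the sources used here. This peak, from 4072545 to 4072764, had a signal of 70.5 in the series-wide list, where it ranked 1552 of 2741. The summit, +473 bp into the gene, was in a coding exon of clec-89 that lies within an intron of unc-89, the worm homologue of the giant muscle protein obscurin. In the replicates' own ranked lists the overlapping peak had a signal of 38.2 in replicate 1 and 18.4 in replicate 2 (mean 28.3 ± 14.0, SD, n = 2). Replicate 1 had no ranked summit within 500 bp of this 5' end, so the summit of its overlapping peak lay outside the promoter window. The replicates thus differed widely at this site, and neither replicate's thresholded list held it.

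The peak of clec-140 (WBGene00020220) was at -198 bp, where negative is upstream, on chromosome II from 4672752 to 4672971. It had 65.0 in the series-wide list, 30.4 in replicate 1 and 34.2 in replicate 2 (mean 32.3 ± 2.65, SD, n = 2). This site is a shared promoter, since the same summit lay -223 bp from the 5' end of the divergent gene hmg-11. The peak of clec-88 (WBGene00019606) was at -35 bp, on chromosome II from 6365577 to 6365796, and had 63.0 in the series-wide list, 26.9 in replicate 1 and 37.3 in replicate 2 (mean 32.1 ± 7.32, SD, n = 2). It too is divergent, and the summit was also -320 bp from the 5' end of ani-2, which encodes an anillin of the germ line. Both summits were nearer to the clec gene than to its neighbour. Stronger ranked peaks that did not overlap these had summits within 500 bp of the clec 5' end. They had 38.9 in replicate 1 at clec-88 and 41.7 in replicate 2 at clec-140.

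The peak of clec-150 (WBGene00019914), at -378 bp on chromosome III from 1002219 to 1002438, had 62.8 in the series-wide list, 24.1 in replicate 1 and 34.7 in replicate 2 (mean 29.4 ± 7.50, SD, n = 2). The peak of clec-196 (WBGene00009156), at +326 bp on chromosome IV from 17277172 to 17277391, had 62.7, with 28.9 in replicate 1 and 30 in replicate 2 (mean 29.5 ± 0.772, SD, n = 2). The replicates were closest to each other at clec-196. This gene held a further thresholded summit at +705 bp in its coding sequence, with a signal of 41.3. Its surroundings were richer in signal, since a peak of 203 lay 1623 bp from its 5' end and -380 bp from that of hsp-1, which encodes the constitutive heat shock protein Hsc70. That peak also overlapped a non-coding RNA gene, F26D10.23.

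At clec-261 (WBGene00013834), at +126 bp on chromosome V from 20294252 to 20294471, the signal was 61.6 in the series-wide list and 25.5 in replicate 1, and no peak of replicate 2's ranked list overlapped it. This promoter peak therefore has a value from 1 replicate and no error. The conservative list, which compares the true replicates, held it all the same, and this difference was not examined. The peak of clec-126 (WBGene00021117), at -211 bp on chromosome II from 3519173 to 3519392, had 60.8, with 23.4 in replicate 1 and 41.1 in replicate 2 (mean 32.2 ± 12.5, SD, n = 2). It was the one member that met a thresholded list of a single replicate, that of replicate 2. Transfer RNA genes have near-identical copies elsewhere, and 10.3% of the 31-base words within 500 bp of this 5' end occur more than once in the genome, so the source of its reads is uncertain. How reads that match several sites were placed is nowhere stated in the labels or headers.

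**Figure D1:**
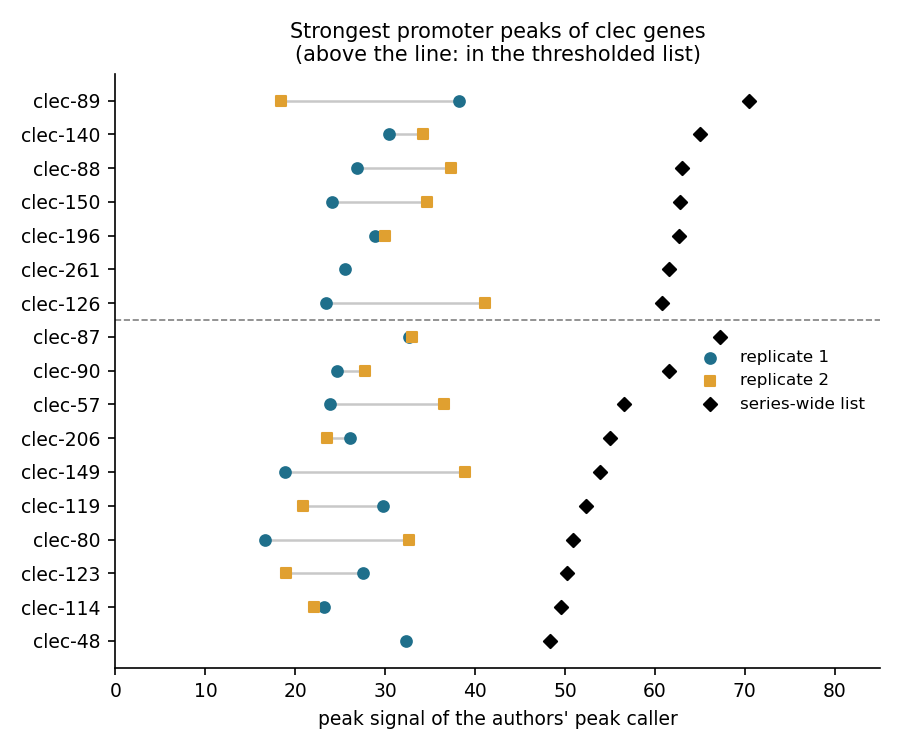
Peak signal (x axis, scale of the authors' peak caller) at the 7 clec genes with a thresholded promoter peak (above the dashed line) and at the 10 with the strongest ranked promoter peak and no thresholded one (below it). Circles are replicate 1, squares replicate 2, and diamonds the series-wide list. The series-wide values run from 60.8 to 70.5 above the line, and a missing square (clec-261 and clec-48) means that no peak of replicate 2's ranked list overlapped.

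All 7 signals were below the median of the thresholded list, 73.1, and below that of the 1033 peaks that were the strongest at some gene's promoter, 81.2. Almost all of these calls were absent from the thresholded lists of the single replicates. Those lists are shorter, with 962 peaks in replicate 1 and 863 in replicate 2, against 2741 in the series-wide list. In the thresholded list of replicate 2 alone, clec-126 was the only clec gene with a promoter peak (1 of 240, against 2.85% of all genes), and in that of replicate 1 alone there was none (0 of 240, against 3.02%). In the conservative list, which compares the true replicates, 5 clec genes had one, against 6.14% of all genes. They were clec-261, clec-196, clec-88, clec-140 and clec-87, so 4 of the 7 were shared.

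The edges of the window and of the threshold hold the following members. The summit furthest from the 5' end among the 7 was at +473 bp in clec-89. Just outside the window, clec-221 had a summit at +571 bp with a signal of 75.7, and clec-83 one at +609 bp with 54.8. With a window of 1000 bp the count was 12 of 240, against 8.76% of all genes, with clec-221, clec-86, clec-83, clec-127 and clec-104 added. With 200 bp it was 3, against 3.15% of all genes, namely clec-261, clec-88 and clec-140. On the IDR score, a whole number of up to 1000, the lowest of the 7 was 867 at clec-196, and the lowest score in the thresholded list was 830. The 2 strongest ranked promoter peaks left out of it scored 745 and 704, at clec-87 and clec-90.

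**Figure D2:**
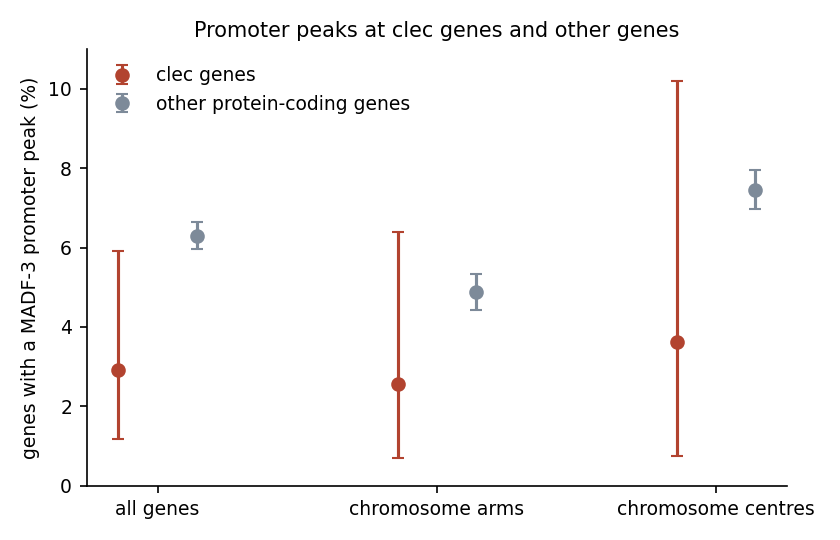
Share of genes with a promoter peak in the series-wide thresholded list (y axis, %), for clec genes (left point of each pair) and other protein-coding genes (right point), over all genes and by position on the chromosome. Bars are exact 95% binomial intervals. The clec share is below the other share in each pair, at 2.92% against 6.30% over all genes, and the intervals of the pair overlap on arms and in centres.

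The family is concentrated on chromosome arms, defined here as the 25% of its length at each end of a chromosome. Worm arms recombine more and carry more recently duplicated genes than the centres. Of the 240 genes, 157 lay on arms (65.4%, exact 95% interval 59.0 to 71.4%), against 44.7% of all protein-coding genes. Chromosome V held 86 clec genes (35.8%), against 25% of all genes, and its right arm alone held 49 (20.4%), against 5.82%. Chromosome X held 3 (1.25%), against 13.7%. The share on arms was above that of all genes on I (61.1 against 42.0%), II (70.8 against 48.0%), IV (71.7 against 40.6%) and V (67.4 against 47.5%). It was below on III, where 4 of 14 clec genes were on an arm (28.6 against 40.8%), and on X 1 of 3 was.

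**Figure D3:**
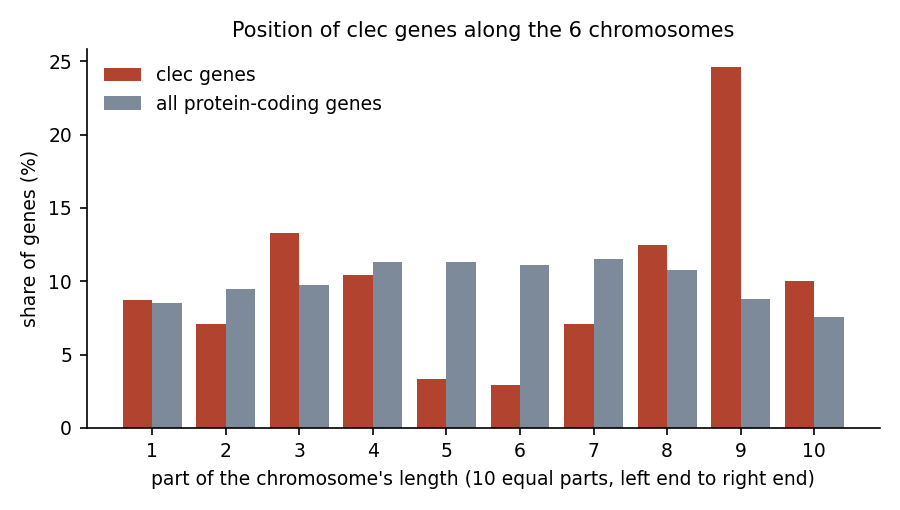
Share of genes (y axis, %) in each of 10 equal parts of the chromosome's length (x axis), over the 6 chromosomes, for clec genes (left bars) and all protein-coding genes (right bars). The ninth part from the left holds 24.6% of the clec genes against 8.82% of all genes, and the sixth holds 2.92% against 11.1%.

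Split by position, the clec share was below the background on arms and in centres, with few genes in each. On arms, 4 of 157 clec genes had a promoter peak (2.55%, exact 95% interval 0.698 to 6.39%), against 4.83% of all genes on arms. In centres, 3 of 83 had one (3.61%, interval 0.752 to 10.2%), against 7.43% of all genes in centres. Each interval includes the background share of its position. By chromosome, the counts were 3 of 48 on II (6.25%, against 6.50% of its other genes), 1 of 86 on V (1.16%, against 4.60%), 1 of 53 on IV (1.89%, against 7.09%), 1 of 36 on I (2.78%, against 9.15%), 1 of 14 on III (7.14%, against 9.37%) and 0 of 3 on X. On II the share was close to that of the chromosome's other genes.

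C-type lectin genes also lay further from the nearest peak of any kind. The median distance from the 5' end to the nearest thresholded summit was 27.8 kb for clec genes (quartiles 9.77 and 61.4 kb), against 17.0 kb for all protein-coding genes (5.43 and 38.6 kb). On arms the medians were 42.3 kb for clec genes and 23.1 kb for all genes, and in centres 22.3 kb and 13.5 kb. Of the clec genes 25.4% had a summit within 10 kb, against 36.5% of all genes. By position the shares were close on arms, at 26.1% against 29.3%, and further apart in centres, at 24.1% against 42.3%. These distances are no set of independent values, because tandem copies share a nearest peak. The longest run of neighbouring clec genes, 13 genes on chromosome V from 16839121 to 16869840 that includes clec-40, clec-22 and clec-33, was 45.9 to 66.8 kb from a thresholded summit.

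**Figure D4:**
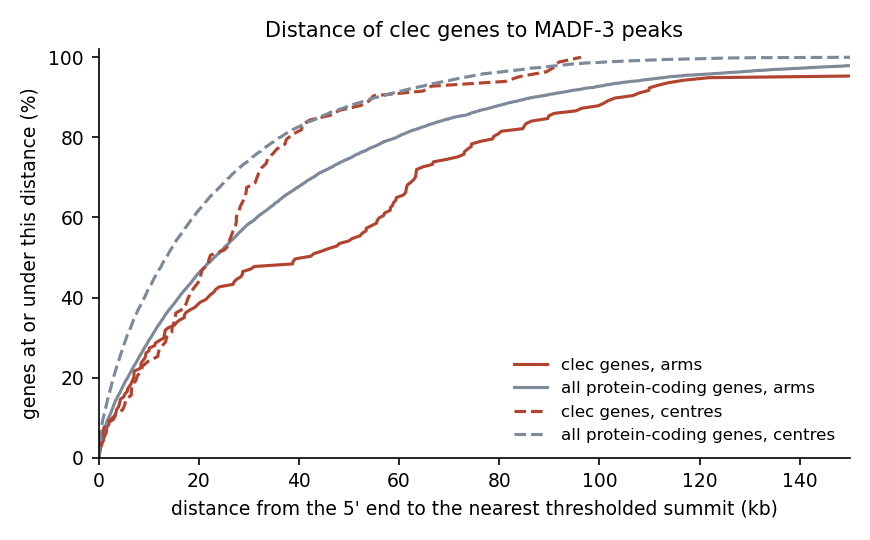
Cumulative share of genes (y axis, %) by distance from the 5' end to the nearest thresholded summit (x axis, kb), for clec genes and all protein-coding genes, on arms (solid) and in centres (dashed). The clec curve on arms reaches 50% at 42.3 kb, against 23.1 kb for all genes on arms, and its steps are runs of neighbouring genes.

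Of the 240 genes, 125 stood in 41 runs of 2 or more clec genes with no other protein-coding gene between them, and 115 stood alone. A promoter peak was found at 1 of the 125 genes in runs (0.8%) and at 6 of the 115 genes that stood alone (5.22%), against 6.26% of all protein-coding genes. The share over all genes in tandem runs of any family was not computed. The gene in a run was clec-126, next to clec-125. The ranked list did not show the same order in counts, with a promoter peak at 104 of the 125 genes in runs and at 93 of the 115 others, against 74.4% of all genes. The median ranked signal was 24.9 in runs and 27.1 for genes that stood alone. Near-identical copies can lose reads, so the repeated sequence was counted. Within 500 bp of the 5' end, more than 10% of the 31-base words occurred again in the genome at 33 of 240 clec genes (13.8%), against 12.3% of all protein-coding genes. Of the 43 clec genes with no ranked peak, 10 were of this kind (23.3%). That share over all protein-coding genes with no ranked peak was not computed. More than 50% of the words were repeated at 6 clec genes (2.5%, against 2.97% of all genes), and all 6 were among these 43. They were the pairs of genes that share the names clec-15, clec-209 and clec-249, with 100% of words repeated. The part of repeated sequence in the missing peaks was not tested.

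The ranked list shows what lies below the threshold. It holds 113502 peaks that cover 24.9% of the genome, so a ranked peak at a promoter is common and most are weak. Of the clec genes 197 had one within 500 bp (82.1%, exact 95% interval 76.6 to 86.7%), against 74.4% of all protein-coding genes. The median signal of the strongest such peak, with 0 where there was none, was 25.3 for clec genes (quartiles 14.4 and 35.4), against 25.6 for all genes (0 and 38). These near-equal medians depend on the zeros. Among genes with a ranked peak, the median was 28.9 for clec genes (quartiles 20.1 and 38.1), against 31.4 for all such genes (22.8 and 42.4). With the zeros, the ninth decile was 45.7 for clec genes and 52.4 for all genes. The highest value was 70.5 among 240 clec genes and 3403 among all 19973 genes, sets of very different size.

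A strongest ranked promoter signal of 80 or over was found at 0 of 240 clec genes, which allows a share of up to 1.53% (exact interval), against 3.42% of all protein-coding genes. At 60 or over there were 9 (3.75%), against 6.87%. Of these 9, the thresholded list held 7, a share of 77.8%, beside 69.4% of other genes with a signal of 60 to 80. The thresholded peaks are themselves entries of the ranked list, so these counts are not a result separate from the promoter count. On arms 85.4% of clec genes had a ranked peak, against 71.9% of all genes there, and in centres 75.9%, against 76.3%. Nuclear hormone receptor genes, another large family with 59.5% of its members on arms, had a median of 23.9 and a highest value of 167.

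**Figure D5:**
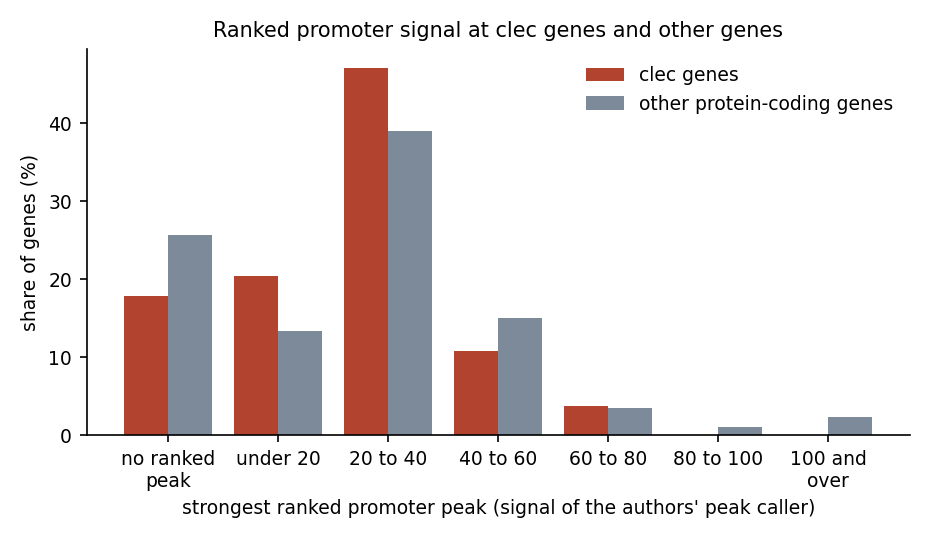
Share of genes (y axis, %) by the signal of the strongest ranked promoter peak (x axis, scale of the authors' peak caller), for clec genes (left bars) and other protein-coding genes (right bars). No clec gene is in the bands from 80 upwards, which hold 684 of the 19733 other genes, and 47.1% of clec genes against 39% of other genes are between 20 and 40.

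Of the members without a thresholded promoter peak, clec-87 had the strongest ranked one. It encodes a core protein of a chondroitin proteoglycan. The summit was at +34 bp in its 5' UTR, on chromosome I from 10185376 to 10185595, with 67.2 in the series-wide ranked list, 32.6 in replicate 1 and 33.0 in replicate 2 (mean 32.8 ± 0.289, SD, n = 2). The replicates were nearly equal there, and the conservative list includes the peak. The site was also -369 bp from rsa-1, a gene named for its role in spindle assembly. Next came clec-90, within an intron of glo-2, with 61.6 (mean over replicates 26.2 ± 2.16, SD, n = 2), and clec-57, with 56.6 (30.2 ± 8.93, SD, n = 2) over a small nuclear RNA gene, F08H9.11. The other 7 of the 10 strongest were clec-206, clec-149, clec-119, clec-80, clec-123, clec-114 and clec-48, with series-wide signals of 48.3 to 55.0. At clec-149 the replicates lay far apart, with 18.9 in replicate 1 and 38.9 in replicate 2.

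In the replicates' own ranked lists the shares of marked promoters were near the background. Replicate 1 had a ranked peak at 57.5% of clec promoters, against 60.4% of all protein-coding genes, and replicate 2 at 66.7%, against 63%. A ranked peak was present in both replicates at 109 clec promoters, in replicate 1 alone at 29, in replicate 2 alone at 51 and in neither at 51. Of the 109, 94 (86.2%) were within 2-fold of each other, and replicate 1 was the higher at 50. The same counts over all protein-coding genes were not made, so these cannot be called particular to clec genes. The lists' scaling is unknown, so the difference between replicates may hold a difference in scale.

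Of the 12 members named for published roles, clec-88 had a thresholded promoter peak and the others had none, against 6.26% of all protein-coding genes. A set of 12 genes is too small to be told apart from that share. By ranked signal, clec-87 had 67.2. At clec-60, a gene induced by Staphylococcus aureus, the strongest ranked promoter peak had 23.6 in the series-wide list, 14.8 in replicate 1 and 13.7 in replicate 2. At clec-67, a target of the PMK-1 pathway, the values were 24.8, 13.7 and 18.2. At clec-85, also regulated by PMK-1, they were 16.9 in the series-wide list and 13.2 in replicate 2, with no peak in replicate 1. None of these 3 values passes the median of all genes, 25.6, and their nearest thresholded summits were 34.8 kb, 74.4 kb and 8.76 kb away.

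At clec-39 and clec-49, whose proteins bind Serratia, the series-wide ranked signal was 34 and 25.8. At clec-38, which acts in axon outgrowth, it was 39.2. The genes clec-4 and clec-7 had no ranked peak at the promoter in the series-wide list, clec-71 had 19.4 and clec-86 had 38.1. The nearest thresholded summit to clec-86 was at -783 bp, in a coding exon of ist-1, with a signal of 61.2. These members were named for their published roles and not for their values.

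A thresholded summit lay in the gene body of 8 clec genes (3.33%, exact 95% interval 1.45 to 6.46%), against 6.01% of all protein-coding genes. The interval includes the share of all genes. The median length was 1787 bp for clec genes and 2027 bp for all genes. The 8 were clec-89, clec-196 and clec-261, described above, and clec-221, clec-264, clec-239, clec-83 and clec-128. The promoter summits of clec-89, clec-196 and clec-261 lie in the gene body and are counted here again. The strongest was in a coding exon near the 3' end of clec-264 (WBGene00009291), with 82.6 in the series-wide list, 44.6 in replicate 1 and 39.6 in replicate 2 (mean 42.1 ± 3.6, SD, n = 2), and it was the one that met the thresholded list of replicate 1. In an intron of clec-221 (WBGene00008916) the peak had 75.7, with 26.4 in replicate 1 and 51.3 in replicate 2 (38.8 ± 17.6, SD, n = 2). Counting the body and 2 kb on each side, 25 clec genes had a summit (10.4%, interval 6.86 to 15.0%), against 18.5% of all genes.

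The promoters of the family have a sequence feature that the name did not choose. The motif TGATAA, a form of the site read by GATA factors such as the intestinal factor ELT-2, was searched on both strands (also as TTATCA) from 250 bp before to 50 bp after the 5' end. It was found at 129 of 240 clec promoters (53.8%), against 30.2% of all protein-coding promoters of that length. The share was 58.6% of clec promoters on arms, against 29.2% of all on arms, and 44.6% of clec promoters in centres, against 31.0% of all in centres. Nuclear hormone receptor genes (29.7%) and cuticle collagen genes (29.5%) were near the background. Such a match is a description of letters and not a bound site.

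To show such promoters where no thresholded peak was found, the windows of clec-60 (chrII:10481825-10482124, minus strand) and clec-67 (chrIV:3921915-3922214, plus strand) follow, with TGATAA or TTATCA in capitals. The first has 1 match and the second 3, and both genes had only the weak ranked peaks given above.
clec-60: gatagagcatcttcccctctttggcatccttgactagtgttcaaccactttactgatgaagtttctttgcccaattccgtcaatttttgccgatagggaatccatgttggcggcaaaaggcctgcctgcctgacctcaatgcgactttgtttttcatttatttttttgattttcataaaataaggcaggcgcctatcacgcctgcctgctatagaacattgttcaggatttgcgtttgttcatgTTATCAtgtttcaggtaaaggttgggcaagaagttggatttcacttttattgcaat
clec-67: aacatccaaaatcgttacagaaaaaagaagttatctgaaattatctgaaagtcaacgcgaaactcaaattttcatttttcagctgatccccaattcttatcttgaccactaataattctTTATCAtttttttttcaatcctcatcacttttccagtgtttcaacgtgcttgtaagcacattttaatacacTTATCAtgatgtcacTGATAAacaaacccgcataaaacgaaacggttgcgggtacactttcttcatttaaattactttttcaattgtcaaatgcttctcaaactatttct

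Promoter peaks were no more frequent where this motif was present. Of the clec promoters with TGATAA, 2 of 129 had a MADF-3 peak (1.55%), and of those without it 5 of 111 (4.50%), and the exact intervals overlap (0.188 to 5.49% and 1.48 to 10.2%). Over all protein-coding genes the shares were 293 of 6026 with the motif (4.86%) and 958 of 13947 without it (6.87%). None of the 7 summit windows of 101 bases held it, and 4.45% of all thresholded summit windows did. The E-box CACGTG, read by HLH-30 among others, was at 2.92% of clec promoters, against 5.82% of all. The DAF-16 type letters GTAAACA (or TGTTTAC) were at 3.75%, against 4.77%, and TATAAA (or TTTATA) at 45.4%, against 37.9%. The median GC content of these 300-base promoters was 34% for clec genes, against 34.3% for all genes and 36.0% for all genes with a promoter peak.

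Other genes of worm defence were looked at in the same way, by name. Galectins, another group of worm lectins (12 genes), lysozymes (16), saposin-like proteins (31), antimicrobial peptides (28), thaumatins (5), irg genes (8) and dod genes (10) had no promoter peak, in all 0 of 110 genes (exact interval up to 3.30%, against 6.26% of all genes). Their median ranked signal was 26.7 and the highest was 56.5, at irg-5. Of 15 genes of immune signalling and transcription, skn-1, which encodes a transcription factor of the stress response, had the only peak, at -67 bp with 66.0 in the series-wide list. Among other large families, 4 of 269 nuclear hormone receptor genes (1.49%), 4 of 156 cuticle collagen genes (2.56%) and 4 of 322 F-box genes (1.24%) had a promoter peak. The strongest of these were nhr-47, with a signal of 167, col-85, with 96.9, and fbxa-111, with 69.7. The nhr-47 summit was also -378 bp from the 5' end of dnj-19, and its peak overlapped a non-coding RNA gene. The col-85 peak overlapped a tRNA gene and a non-coding RNA gene. The clec share of 2.92% lay close to these families, and differences among them were not tested.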

How the data were processed

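Sonicated chromatin was precipitated with an antibody against GFP and peaks refer to build ce11, per the labels. The aligner, the peak caller and its control were not named in the labels or headers. The signal of each peak and the score of up to 1000 made from the IDR are as deposited by the authors, and the ranked lists also hold −log10 IDR values of at most 5, as the authors deposited them. Depth is unknown. The series-wide ranked list used here is the one that holds every peak of the series-wide thresholded list.

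Genes came from Ensembl release 115, and sequence from the RefSeq copy of WBcel235, whose chromosomes hold every peak. Summits are the peak start plus the offset in the files, counted from 1. For each gene the strongest peak with its summit within 500 bp of the 5' end was taken. For a named peak, a replicate value comes from the strongest peak of that replicate's ranked list that overlaps it, and for members named for a published role from its strongest promoter peak. The centre is the central 50% of a chromosome. Intervals are exact (Clopper-Pearson, 95%). No test was run, since there is 1 group. The promoter count was checked on simulated data, with 200 of 200 placed summits found among 19973 genes. Python 3.11.15, pandas 2.3.3 and scipy 1.17.1 were used.

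The members and lists were chosen with earlier results of these data known. Named were all members with a promoter peak or a summit in the body, the 10 next by ranked signal, 12 members with published roles, and up to 4 genes of each other list with a peak. Alternatives were other lists, windows, 5' ends, overlaps and arm boundaries, and each replicate alone. Protein sequences were not analysed here.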

Additional observations from a re-analysis of the deposited data

How the results depend on the processing

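The count of clec genes with a promoter peak was 7, and it stayed within 1.5 times of that in the conservative list, with any transcript start, with any base of the peak in the window, with the nearest 5' end only, and on autosomes alone, a setting added after seeing the data. It was 0 among the 1370 stronger peaks, against 4% of all genes, which follows from all 7 signals being below the median of the list. The count was 3 with a window of 200 bp, 12 with 1000 bp, and 0 to 1 with a replicate left out. The median ranked promoter signal of 25.3 was 5.28 with 200 bp, 34.1 with 1000 bp, 28.9 over members with a ranked peak alone (31.4 over all such genes), and 11.3 to 13.3 with a replicate left out, on the replicates' own scales. The count of promoter peaks in centres was 3, and 1 with the centre as the middle one of 3 equal parts, against 7.43% of all genes under either boundary. The count with a summit in the body or within 2 kb was 25, with 8 for the body alone, against 6.01% of all genes, and 44 with 5 kb flanks, against 28.1%. A wider window or flank can only add summits, so counts and medians cannot fall as it widens. With the narrower centre, the clec genes on arms went from 157 to 202, so fewer were left in the centre. The cause of the other moves was not tested. Direction against all genes was lower for the promoter count in every setting listed. The median lay above that of all genes with 200 bp (0) and 1000 bp (33.3) and in replicate 2 alone (13.1). No paired analysis was possible because there is 1 group of 2 replicates. Unknown depth limits how an absent peak can be read.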

Other observations

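Some stronger peaks lay close to C-type lectin genes but outside their promoters. A peak of 186 in the series-wide list, with 90.5 in replicate 1 and 87.4 in replicate 2, was 5209 bp from the 5' end of clec-180. It overlapped a small nucleolar RNA gene, F32E10.10. The nearest protein-coding 5' end was that of cec-4, at -1616 bp, which encodes a chromodomain protein that anchors heterochromatin. A peak of 110, with 48.3 in replicate 1 and 57.2 in replicate 2, was at -982 bp from clec-104 and -230 bp from ciao-1. A peak of 103, with 54.0 in replicate 1 and 48.8 in replicate 2, lay beyond the 3' end of clec-87, in the 3' UTR of iars-2, a tRNA synthetase gene. The nearest protein-coding 5' end to that summit was that of clec-87, at +1123 bp.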
